A study of Mus musculus with 10 samples.

Results

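The activation of hedgehog signalling was examined by setting 4 arrays from cultures with SAG against 3 arrays from vehicle cultures, 7 of the 10 arrays measured. SAG is a small molecule that binds and activates Smoothened, the membrane protein through which hedgehog signals enter the cell. Wolffian ducts, the embryonic tubes that give rise to the epididymis and vas deferens, were dissected at 16.5 days post-coitum (mouse) and grown at an air-liquid interface for 72 h. The SAG group received 0.5 µM SAG, and the vehicle group is described as culture medium. A further 3 arrays from ducts grown with 25 µM cyclopamine, an inhibitor of Smoothened, entered the shared estimate of spread and the mean signals over 10 arrays, and were set against SAG in a direct contrast and beside it for some genes and lists. The sources used here do not give the strain, the sex, the number of ducts behind each sample or the solvent of the compounds. The titles of the samples name the pronephros, whereas the protocols name the Wolffian duct. All 22206 probe sets were tested, of which 19572 carry a gene name and stand for 19505 genes.

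Hedgehog ligands bind the receptor Patched 1, which otherwise holds Smoothened silent. Active Smoothened leads, through the primary cilium, to GLI transcription factors that switch on target genes, among them the pathway's own inhibitors Ptch1 and Hhip. In the Wolffian duct and other tubular organs, epithelium releases the ligand, and much of the response is read in the surrounding mesenchyme.

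Values are log2 signals, so a difference of 1 is a doubling of signal, and errors beside differences are moderated standard errors (SE) from limma. Array medians lay between 7.55 and 7.70. Duct epithelium markers were present on every array, with a mean over 27 genes of 10.6 to 11.6 on vehicle and 9.54 to 10.3 on SAG arrays. Over 19 mesenchyme and fibroblast markers the mean was 13.7 to 13.8 with vehicle and 13.8 to 14.04 with SAG. SAG replicate 1 stood apart for 13 markers of gonad and adrenal cells, whose mean was 7.69 there and 6.51 to 6.70 on the other SAG arrays. On that array Hsd3b1, a steroid-synthesis enzyme, was at 10.04 and Cyp11a1, which makes pregnenolone, at 9.04; vehicle replicate 3 followed with 7.95 and 8.78. The series calls the replicates biological, and their number limits the precision of every value.

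Most genes did not pass the test. At a Benjamini-Hochberg adjusted p of 0.05, 162 of 22206 probe sets passed (0.73%), 100 higher and 62 lower with SAG. Among genes, 93 of 19505 rose (0.477%) and 55 fell (0.282%), and the other 14 probe sets have no gene name here. In every one of the 162, no SAG array overlapped a vehicle array, a property that 13.1% of all genes had. The calls rest on the same differences, so this separation is no independent evidence for them. The median SE of a difference was 0.178, and 134 of the called probe sets moved by more than 2-fold, 85 up and 49 down. The smallest change that passed was 0.59 log2 units. By mean signal, 43 rose and 15 fell in the brightest 25% of probe sets, 33 rose and 34 fell in the next 25%, 23 rose and 12 fell in the next, and 1 rose and 1 fell in the dimmest 25%, which lay below a signal of 5.19. The share of higher calls was 61.7%; it was 72.4% when each array was centred on its median and 51.0% when only the 7 arrays entered the fit. In all, 36 called probe sets passed whichever single array was left out, 32 of them higher and 4 lower.

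**Figure D1:**
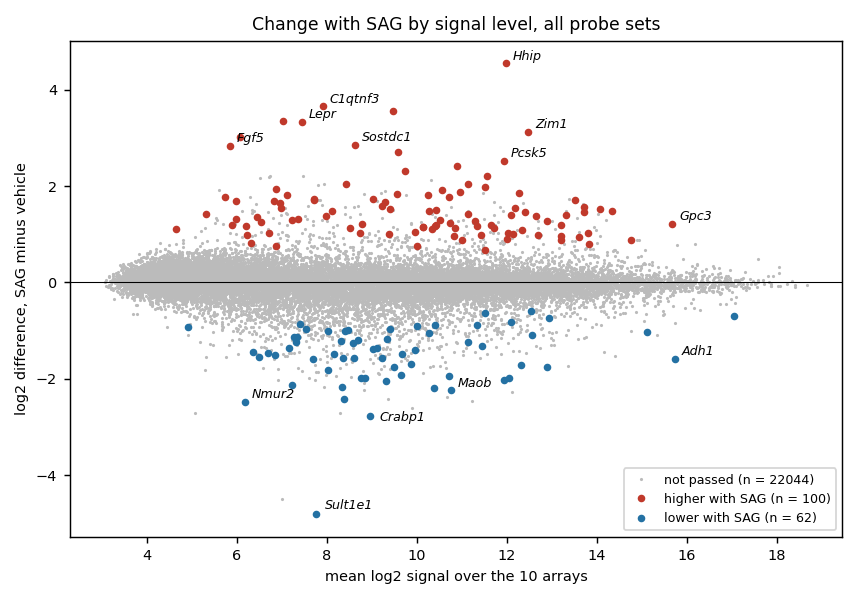
Each point is 1 of the 22206 probe sets, with its mean log2 signal over the 10 arrays on the horizontal axis and the log2 difference, SAG minus vehicle, on the vertical axis. The 100 higher (red) and 62 lower (blue) calls lie at mean signals above 5.19 with the exception of 1 rise and 1 fall, with Hhip at 4.55 and Sult1e1 at -4.80 farthest from 0.

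Of 12 measured genes known as hedgehog targets, 4 rose and 0 fell, beside 0.477% of all genes rising. These 4 included Hhip, the decoy that binds hedgehog ligands at the cell surface. Its signal was 12.08, 12.67 and 11.09 on the vehicle arrays and 16.01, 16.81, 16.54 and 16.60 on the SAG arrays. The lowest SAG array lay far above the highest vehicle array, a rise of 4.55 ± 0.33 (limma adjusted p = 0.000275), or 23.4-fold. Ptch1, the receptor, was bright already with vehicle, at 14.49, 14.58 and 13.95, against 15.40, 16.28, 16.15 and 15.74 with SAG. These groups lay close but did not overlap, and the rise was 2.94-fold (1.56 ± 0.22 (limma adjusted p = 0.012)). Gli1, the transcription factor that the pathway induces, measured 12.63, 11.67 and 11.43 with vehicle and 13.41, 13.41, 13.61 and 13.24 with SAG. All SAG arrays were higher, by 1.51 ± 0.27 (limma adjusted p = 0.0374). Foxf1, a forkhead factor of gut and lung mesenchyme, rose by 1.17 ± 0.21 (limma adjusted p = 0.0351), from 6.54, 6.18 and 5.51 to 7.29, 7.29, 7.11 and 7.29. The other 8 targets did not pass and ranged from -0.63 ± 0.33 (Osr1) to 0.39 ± 0.22 (Nkx2-2), and the list median was 0.28 beside 0.01 over all genes. The calls for Hhip and Ptch1 held with any single array left out. Calls that ended without at least 1 of vehicle replicates 2 and 3, SAG replicates 1, 2, 3 and 4 and cyclopamine replicates 1 and 3 were those of Gli1 (0.204) and Foxf1 (0.134), the highest adjusted p in parentheses.

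Among genes that make, bind or relay the ligand, few moved, beside 0.477% of all genes rising. Hhat, the acyltransferase that adds palmitate to hedgehog ligands, was the 1 of 9 ligand and processing genes that rose. It measured 9.36, 9.07 and 8.89 with vehicle and 9.95, 10.46, 10.07 and 9.98 with SAG, without overlap (1.01 ± 0.17 (limma adjusted p = 0.0256)). Shh was at 9.80, 10.27 and 9.23 with vehicle and 8.54, 9.32, 8.73 and 8.72 with SAG, where 1 SAG array reached into the vehicle range. The Shh difference of -0.94 ± 0.33 did not pass (limma adjusted p = 0.311), nor did Ihh (-0.05 ± 0.15) or Dhh (-0.14 ± 0.16). Of 6 genes in a list of co-receptors and related surface proteins, Gpc3 rose, a heparan sulphate glypican of the cell surface that binds hedgehog ligands. It was among the brightest genes called, with 15.60, 15.57 and 15.48 on vehicle and 16.47, 16.998, 16.69 and 16.91 on SAG arrays, a rise of 1.22 ± 0.16 (limma adjusted p = 0.00841). Boc (0.56 ± 0.24), Gas1 (-0.28 ± 0.29) and Cdon (-0.25 ± 0.19), which bind the ligand beside Ptch1, did not pass. Of the 18 measured transduction genes 0 passed in limma (1 at an unadjusted p under 0.05, which 10.9% of all genes had), and they ranged from -0.47 to 0.55: Gli2 was at 0.55 ± 0.25, Smo at 0.36 ± 0.21 and Gli3 at -0.19 ± 0.25. With any 1 of the 10 arrays left out, Gpc3 still passed. The call for Hhat ended without at least 1 of vehicle replicates 2 and 3 and SAG replicates 2, 3 and 4, with adjusted p up to 0.141.

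Beyond these, the largest rise was that of C1qtnf3, a secreted protein with a C1q domain. Its signal was dim and even with vehicle, 6.44, 6.50 and 6.65, and 8.87, 10.43, 10.63 and 10.82 with SAG, a 12.6-fold rise (3.66 ± 0.38 (limma adjusted p = 0.00277)). SAG replicate 1 was the lowest of the treated arrays and still clear of the vehicle group. A second family member, C1qtnf7, rose by 1.08 ± 0.11 (limma adjusted p = 0.00277), and the other 15 of 17 measured C1q-domain genes did not pass. Over all genes 0.477% rose. Lepr, the leptin receptor, measured 5.95, 6.78 and 6.38 with vehicle and 8.79, 9.97, 10.42 and 9.62 with SAG. It rose 10.1-fold (3.33 ± 0.36 (limma adjusted p = 0.00374)) with no overlap, the 1 call among 17 genes of the leptin and gp130 receptors and their feedback. Its ligand Lep (0.14 ± 0.19) and the feedback gene Socs3 (0.94 ± 0.62) did not pass. Itgbl1, a secreted integrin-beta-like protein, measured 9.24, 9.62 and 9.01 with vehicle and 10.73, 12.11, 12.57 and 12.59 with SAG, a rise of 2.71 ± 0.44 (limma adjusted p = 0.0228). SAG replicate 1 was again the lowest. None of the 28 other genes of the integrin symbol family passed; Itga4 came nearest (1.42 ± 0.30 (limma adjusted p = 0.0717)). C1qtnf3, C1qtnf7 and Lepr passed whichever single array was left out. The call for Itgbl1 ended without at least 1 of vehicle replicates 1, 2 and 3 and SAG replicates 2, 3 and 4, with adjusted p up to 0.0974.

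**Figure D2:**
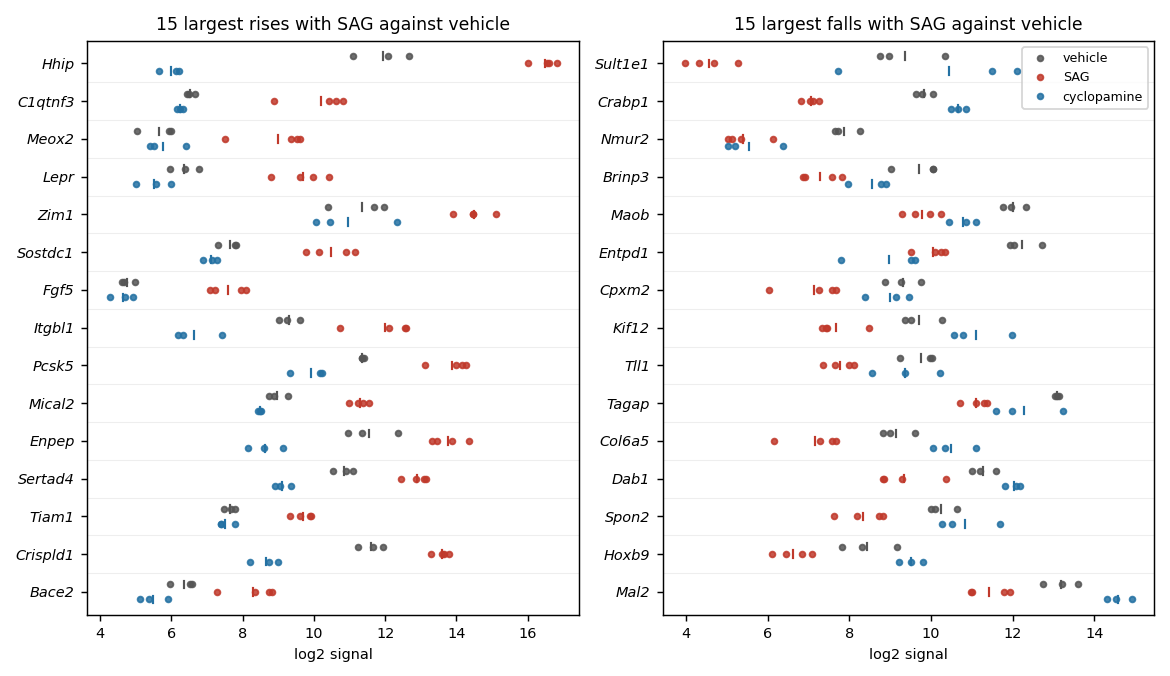
Each row is a gene and each point an array, with log2 signal on the horizontal axis, vehicle in grey, SAG in red and cyclopamine in blue, and a short bar at each group mean. The 15 rises (left) and 15 falls (right) were chosen among calls in which red and grey points do not overlap. Cyclopamine lies on the far side of vehicle for Hhip and Crabp1 and beside SAG for Nmur2.

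Several secreted regulators of other pathways were among the rises, which made up 0.477% of all genes. Sostdc1, which binds BMPs and also blocks Wnt signalling, measured 7.80, 7.78 and 7.31 with vehicle and 9.78, 10.89, 11.16 and 10.13 with SAG. The 7.26-fold rise (2.86 ± 0.30 (limma adjusted p = 0.00298)) was the 1 call among 17 BMP antagonists; Fst (0.73 ± 0.20), Nog (-0.63 ± 0.23) and Grem1 (1.21 ± 0.80) did not pass. Fgf5, a growth factor, lay near the lower end of the scale with vehicle, 4.66, 4.62 and 4.97, and at 7.23, 8.08, 7.08 and 7.94 with SAG. All SAG arrays were higher, by 2.83 ± 0.26 (limma adjusted p = 0.00172); the vehicle signals lay in the range of the dimmest 25% of probe sets, where a difference may be understated. Fgf5 was the 1 of 21 FGF ligands to pass. Fgf9 (1.70 ± 0.34 (limma adjusted p = 0.0561)) and Fgf7 (1.85 ± 0.41 (limma adjusted p = 0.0818)) were higher without overlap of the groups and did not pass, and Fgf10, the ligand of branching epithelia, was at -1.10 ± 0.32 (limma adjusted p = 0.184). In limma, 0 of 12 FGF feedback genes and 0 of 7 FGF receptors passed (2 and 2 at an unadjusted p under 0.05). Tgfb3 rose from 12.32, 11.91 and 11.96 to 13.19, 13.10, 12.97 and 13.05 (1.01 ± 0.14 (limma adjusted p = 0.012)), the 1 of 28 BMP, GDF, activin and TGF-beta ligands that passed. Dkk3, a secreted Dickkopf protein, was the 1 call among 15 Wnt antagonists (1.19 ± 0.14 (limma adjusted p = 0.00476)), while Sfrp2 (-1.74 ± 0.49 (limma adjusted p = 0.175)) and Apcdd1 (-1.19 ± 0.28 (limma adjusted p = 0.10)) lay lower and did not pass. Trabd2b, a membrane metalloprotease that inactivates Wnt ligands, rose by 1.65 ± 0.19 (limma adjusted p = 0.00417). The calls for Sostdc1, Fgf5, Dkk3 and Trabd2b held with any single array left out. The call for Tgfb3 ended without at least 1 of vehicle replicates 2 and 3, with adjusted p up to 0.0769.

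Single members rose in further ligand and binding-protein families, beside 0.477% of all genes rising. Igfbp6, which binds IGF-II, measured 10.56, 9.74 and 10.29 with vehicle and 11.56, 11.47, 11.48 and 11.23 with SAG. It rose by 1.24 ± 0.21 (limma adjusted p = 0.0264) without overlap, while the other 18 genes of the IGF system, Igf1 (-0.44 ± 0.19) and Igf2 (0.20 ± 0.17) included, did not pass. Artn, a ligand of the GDNF family, was at 7.12, 7.003 and 7.06 with vehicle and 8.19, 8.48, 8.08 and 7.58 with SAG, a rise of 1.02 ± 0.19 (limma adjusted p = 0.0436). Rgmb, a co-receptor for BMPs, rose by 0.75 ± 0.11 (limma adjusted p = 0.0174), 1 of 4 genes of the RGM and neogenin group. The lists of GDNF and RGM genes were drawn up after values had been seen. Among single left-out arrays, calls ended without at least 1 of vehicle replicates 1, 2 and 3, SAG replicates 1, 2, 3 and 4 and cyclopamine replicates 1 and 3 for Igfbp6 (0.117), Artn (0.209) and Rgmb (0.0846), with the highest adjusted p in parentheses.

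Membrane-bound and secretory-pathway proteases moved in both directions. Pcsk5, a convertase that cuts growth-factor precursors, measured 11.40, 11.34 and 11.34 with vehicle and 13.12, 14.27, 13.996 and 14.15 with SAG. The vehicle arrays were nearly equal and all SAG arrays lay higher, by 2.52 ± 0.29 (limma adjusted p = 0.00406) or 5.74-fold. Enpep, the aminopeptidase that cleaves angiotensin II, went from 12.35, 10.95 and 11.36 to 13.46, 14.36, 13.89 and 13.32 (2.21 ± 0.36 (limma adjusted p = 0.0228)). Bace2, an aspartyl protease, was dim with vehicle (6.59, 6.51 and 5.96) and reached 7.27, 8.82, 8.35 and 8.74 with SAG (1.94 ± 0.35 (limma adjusted p = 0.036)). Mme, or neprilysin, which degrades small peptides, went the other way. It measured 12.98, 12.84 and 12.95 with vehicle and 10.99, 11.56, 10.73 and 11.56 with SAG, a fall of 1.71 ± 0.21 (limma adjusted p = 0.00553). So 3 of 17 genes of this group rose and 1 fell, beside 0.477% and 0.282% of all genes, in a list drawn up after values had been seen. The furin-type convertase Furin (0.28 ± 0.18) and Ece1 (0.05 ± 0.20), an endothelin-converting enzyme, did not pass. Pcsk5 and Mme passed whichever single array was left out. Single arrays decided some calls, which ended without at least 1 of vehicle replicates 1, 2 and 3 and SAG replicates 2, 3 and 4 for Enpep (0.125) and Bace2 (0.141), with the highest adjusted p in parentheses.

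Matrix genes that passed the test as rises were scattered members of their families. In the ADAM and ADAMTS family, 3 of 56 rose and 0 fell, beside 0.477% of all genes rising. They were Adamts3, a procollagen N-proteinase (6.43, 6.47 and 6.45 with vehicle, 8.52, 8.39, 7.44 and 8.72 with SAG, 1.82 ± 0.31 (limma adjusted p = 0.0262)), Adamts9, which cleaves versican (1.42 ± 0.18 (limma adjusted p = 0.00563)), and Adamtsl2, which lacks a protease domain (1.35 ± 0.21 (limma adjusted p = 0.0187)). Timp3, an inhibitor of metalloproteinases and ADAMTS enzymes held in the matrix, measured 13.90, 13.78 and 13.06 with vehicle and 14.79, 15.23, 15.04 and 15.08 with SAG. It rose by 1.46 ± 0.21 (limma adjusted p = 0.012) and was the 1 call of 19 metalloproteinase and inhibitor genes. Of 16 small leucine-rich proteoglycans, which bind collagen fibrils, 3 rose and 0 fell, beside the same 0.477%: Fmod (1.39 ± 0.20 (limma adjusted p = 0.0137)), Aspn (1.47 ± 0.24 (limma adjusted p = 0.0228)) and Omd (1.42 ± 0.27 (limma adjusted p = 0.0483)). Aspn was bright, at 13.96, 13.63 and 13.87 with vehicle and 15.21, 15.25, 15.51 and 15.20 with SAG. Omd was in the range of the dimmest 25% with vehicle. Dcn (-0.03 ± 0.14) and Lum (-0.06 ± 0.13) did not pass. That list, and those of fibulins and of hyaluronan enzymes, were drawn up after values had been seen. Fbln5, an elastic-fibre protein (1.86 ± 0.29 (limma adjusted p = 0.0185)), and Hmcn1, a hemicentin (1.70 ± 0.24 (limma adjusted p = 0.012)), rose among 16 fibulins and hemicentins, and Has2, which makes hyaluronan, among 11 hyaluronan enzymes (1.27 ± 0.21 (limma adjusted p = 0.0228)). Among 42 collagen chains Col14a1, a fibril-associated chain, rose (1.04 ± 0.18 (limma adjusted p = 0.031)) and Col6a5 fell by 1.97 ± 0.38 (limma adjusted p = 0.0457), and Col1a1 (0.35 ± 0.13) and Col3a1 (0.29 ± 0.12) did not pass. Smaller differences were more widespread, with 20 of the 42 chains at an unadjusted limma p under 0.05, which 10.9% of all genes had. In 15 chains every SAG array was above every vehicle array and in 5 below. Such separation in either direction was seen in 13.1% of all genes. The calls for Adamts9 and Timp3 held with any single array left out. Calls that ended without at least 1 of vehicle replicates 1, 2 and 3, SAG replicates 1, 2, 3 and 4 and cyclopamine replicates 1 and 3 were those of Adamts3 (0.132), Adamtsl2 (0.0886), Fmod (0.064), Aspn (0.141), Omd (0.178), Fbln5 (0.0924), Hmcn1 (0.0755), Has2 (0.125), Col14a1 (0.176) and Col6a5 (0.186), the highest adjusted p in parentheses.

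Further large rises came from genes of several kinds. Mical2, a flavoprotein that oxidises actin, measured 8.86, 9.28 and 8.75 with vehicle and 11.23, 10.98, 11.38 and 11.54 with SAG. The groups were tight and far apart, and its 4.97-fold rise (2.31 ± 0.17 (limma adjusted p = 0.000275)) shared the smallest adjusted p among the called rises with Hhip. Tiam1, an exchange factor for Rac, went from 7.79, 7.47 and 7.68 to 9.33, 9.61, 9.88 and 9.92 (2.04 ± 0.18 (limma adjusted p = 0.00126)). Of 34 regulators of ARF GTPases, a list drawn up after values had been seen, 3 rose and 0 fell (0.477% of all genes rose): Cyth3, an exchange factor (1.02 ± 0.15 (limma adjusted p = 0.0163)), and the GTPase-activating proteins Arap1 (0.98 ± 0.18 (limma adjusted p = 0.0408)) and Asap1 (0.94 ± 0.16 (limma adjusted p = 0.0283)). Sertad4, a SERTA-domain protein, measured 11.09, 10.90 and 10.55 with vehicle and 12.44, 13.10, 13.15 and 12.86 with SAG, a rise of 2.04 ± 0.20 (limma adjusted p = 0.00233). Crispld1, a secreted protein of the CAP family, rose by 1.97 ± 0.22 (limma adjusted p = 0.00404), from 11.95, 11.65 and 11.23 to 13.29, 13.79, 13.64 and 13.59. In both genes the lowest SAG array was above the highest vehicle array. With any 1 of the 10 arrays left out, Mical2, Tiam1, Sertad4 and Crispld1 still passed. Among single left-out arrays, calls ended without at least 1 of vehicle replicates 1, 2 and 3 and SAG replicates 1, 2, 3 and 4 for Cyth3 (0.0953), Arap1 (0.209) and Asap1 (0.133), with the highest adjusted p in parentheses.

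Transcription factors of the mesoderm rose in a few members. Meox2, a homeobox factor of somites and mesenchyme, measured 5.999, 5.94 and 5.03 with vehicle and 7.50, 9.35, 9.54 and 9.60 with SAG. Its 10.2-fold rise (3.34 ± 0.49 (limma adjusted p = 0.0142)) was uneven, since SAG replicate 1 lay well below the other SAG arrays. Its paralogue Meox1 was at -0.13 ± 0.13 and did not pass. Of 39 forkhead factors 4 rose and 0 fell, beside 0.477% of all genes rising, with a family median of 0.15 that was 0.09 without SAG replicate 1. Beside Foxf1 these were Foxd1, a factor of kidney stroma, with 5.12, 5.18 and 5.22 on vehicle and 6.29, 6.87, 7.50 and 7.09 on SAG arrays (1.76 ± 0.23 (limma adjusted p = 0.00739)), Foxc2 (1.68 ± 0.23 (limma adjusted p = 0.0106)) and Foxd2 (0.82 ± 0.14 (limma adjusted p = 0.0287)). All 3 were dim with vehicle, Foxd1 in the range of the dimmest 25%, and for Foxc2 the signals were 6.12, 5.35 and 5.19 with vehicle and 7.14, 7.58, 7.36 and 6.85 with SAG. Foxp2 was as far above vehicle on average but varied widely and did not pass (1.72 ± 0.60 (limma adjusted p = 0.30)), and Foxf2 (-0.14 ± 0.35) and Foxl1 (0.38 ± 0.19), both known from gut mesenchyme, did not pass. Across 52 mesodermal and stromal factors 5 rose, beside 0.477% of all genes, and the median was -0.01. The 5 were Meox2 and the forkheads already counted above. Zfp423, a zinc finger factor of adipocyte precursors, rose by 1.78 ± 0.27 (limma adjusted p = 0.015), and the other 10 adipocyte-lineage genes, Pparg (-0.37 ± 0.31) among them, did not pass. In limma, 0 of 13 T-box, 20 SOX, 9 PAX and 5 GATA factors passed, and 1, 1, 2 and 0 had an unadjusted p under 0.05. Foxd1 passed whichever single array was left out. Single arrays decided some calls, which ended without at least 1 of vehicle replicates 1, 2 and 3 and SAG replicates 1, 2, 3 and 4 for Meox2 (0.0604), Foxc2 (0.0676), Foxd2 (0.176) and Zfp423 (0.0964), with the highest adjusted p in parentheses.

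**Figure D3:**
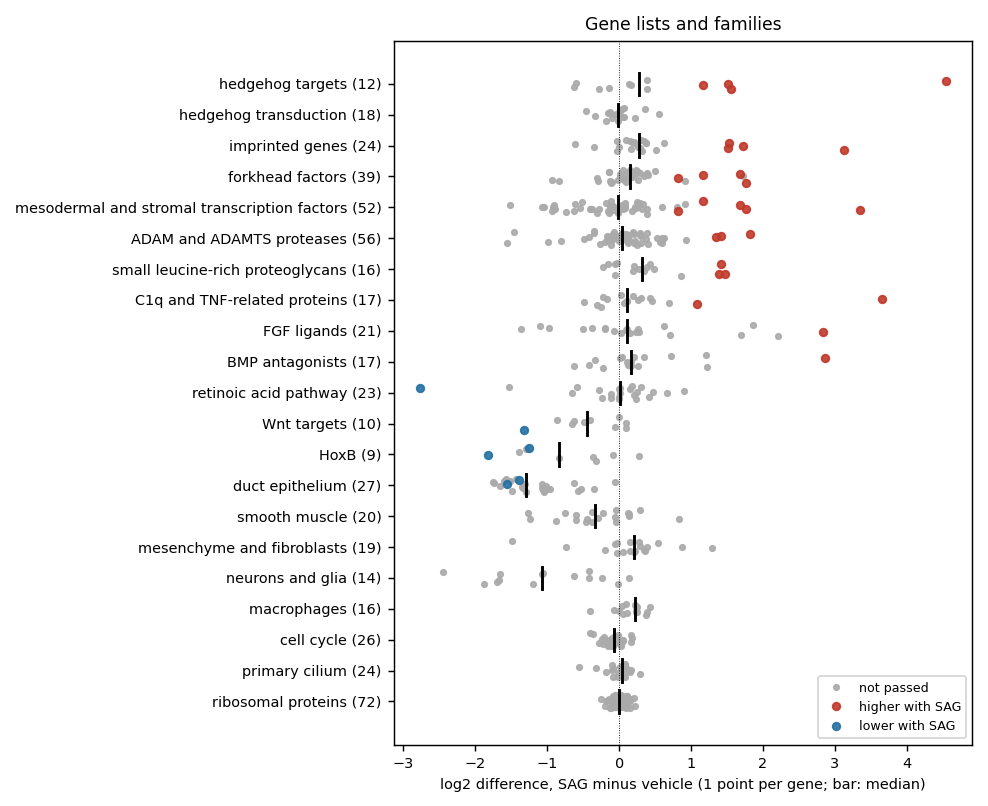
Each point is a gene placed by its log2 difference, SAG minus vehicle, in rows of gene lists or families with the number of measured members in brackets; red points rose, blue points fell, grey points did not pass, and the bar is the median. Where a row holds red points they stand right of its median, and many rows hold none. The duct epithelium row lies left of 0 as a whole with a median of -1.30.

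Imprinted genes, which are read from only 1 parental copy, held 4 rises and 0 falls among 24 measured (0.477% of all genes rose), with a median of 0.27. Zim1, a zinc finger gene, measured 11.98, 10.41 and 11.68 with vehicle and 13.91, 14.45, 15.12 and 14.45 with SAG. The 8.73-fold rise (3.13 ± 0.54 (limma adjusted p = 0.028)) had a wide SE. Peg3, a zinc finger gene next to it, went from 13.61, 13.27 and 13.68 to 14.62, 15.15, 15.35 and 15.04 (1.52 ± 0.28 (limma adjusted p = 0.0383)), and Usp29, a deubiquitinase gene that starts beside Peg3, from 9.39, 8.90 and 8.68 to 10.21, 10.45, 10.82 and 10.54 (1.52 ± 0.29 (limma adjusted p = 0.0443)). In all 3 genes every SAG array was above every vehicle array. Plagl1, a zinc finger regulator on another chromosome known to act within an imprinted gene network, measured 12.97, 12.44 and 13.19 with vehicle and 14.65, 14.50, 14.77 and 14.42 with SAG. It rose by 1.72 ± 0.19 (limma adjusted p = 0.00374). The other 20 did not pass, with Igf2 at 0.20 ± 0.17, Cdkn1c at 0.35 ± 0.34, Grb10 at 0.15 ± 0.11 and Dlk1 at 0.10 ± 0.14. The call for Plagl1 held with any single array left out. Calls that ended without at least 1 of vehicle replicates 1, 2 and 3, SAG replicates 1, 2, 3 and 4 and cyclopamine replicate 1 were those of Zim1 (0.147), Peg3 (0.209) and Usp29 (0.209), the highest adjusted p in parentheses.

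Peg3 and Usp29 are read in opposite directions from starts 164 bases apart, and their RefSeq promoter windows, 250 bases before to 50 after each start, share 263 bases. The window of Usp29 (GRCm38.p6, chr7:6730333-6730632, plus strand) is shown because the 2 genes rose together; capitals mark the bases it shares with the window of Peg3 (chr7:6730370-6730669, minus strand).
Usp29: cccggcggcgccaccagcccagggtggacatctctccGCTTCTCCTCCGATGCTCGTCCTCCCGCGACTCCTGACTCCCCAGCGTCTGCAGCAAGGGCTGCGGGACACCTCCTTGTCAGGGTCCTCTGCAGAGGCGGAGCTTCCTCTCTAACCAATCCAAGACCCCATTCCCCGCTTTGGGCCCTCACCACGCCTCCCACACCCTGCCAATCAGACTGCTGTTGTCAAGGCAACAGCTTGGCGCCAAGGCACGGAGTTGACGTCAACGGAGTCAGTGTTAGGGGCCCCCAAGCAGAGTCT
Of its 300 bases, 63.7% are G or C, and it holds 17 CpG dinucleotides. The rises of both genes were close in size, 1.52 ± 0.28 and 1.52 ± 0.29. Aurkc, the next measured gene on the far side of Usp29, and the olfactory receptor genes beyond Zim1 did not pass.

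Other called genes also lay side by side on the chromosomes. Of the 148 called genes, 23 (15.5%) were next to another called gene in RefSeq gene order, while 1.5% of all measured genes were next to a called gene. Within 3 places of each other there were 16 called pairs, 15 of which moved in the same direction. Adjacent pairs that rose were Sostdc1 with Meox2, Prdm8 with Fgf5, Aspn with Omd, Rai14 with C1qtnf3, Dkk3 with Mical2, Hhat with Sertad4 and Artn with St3gal3. Adjacent pairs that fell were Nmur2 with Gria1 and Cpxm2, a carboxypeptidase-like protein, with Chst15, a chondroitin sulphotransferase. Their falls were 2.48 ± 0.35 and 1.21 ± 0.20 in the first pair, and 2.17 ± 0.40 and 1.23 ± 0.17 in the second. The exception was Stard10 (-0.73 ± 0.14) beside Arap1 (0.98 ± 0.18). Prdm8, a histone methyltransferase-family factor, measured 6.26, 5.90 and 5.74 with vehicle and 7.24, 6.88, 6.89 and 6.80 with SAG, a rise of 0.99 ± 0.16 (limma adjusted p = 0.0228) beside the larger rise of Fgf5. Foxf1 and Foxc2 rose with Mthfsd between them at -0.09 ± 0.18 and Foxl1 beyond at 0.38 ± 0.19, neither of which passed. With any 1 of the 10 arrays left out, St3gal3 still passed. Among single left-out arrays, calls ended without at least 1 of vehicle replicates 1, 2 and 3, SAG replicates 1, 2, 3 and 4 and cyclopamine replicates 1 and 3 for Nmur2 (0.0546), Gria1 (0.141), Cpxm2 (0.211), Chst15 (0.0595), Stard10 (0.241), Arap1 (0.209), Prdm8 (0.133), Rai14 (0.141) and Artn (0.209), with the highest adjusted p in parentheses.

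**Figure D4:**
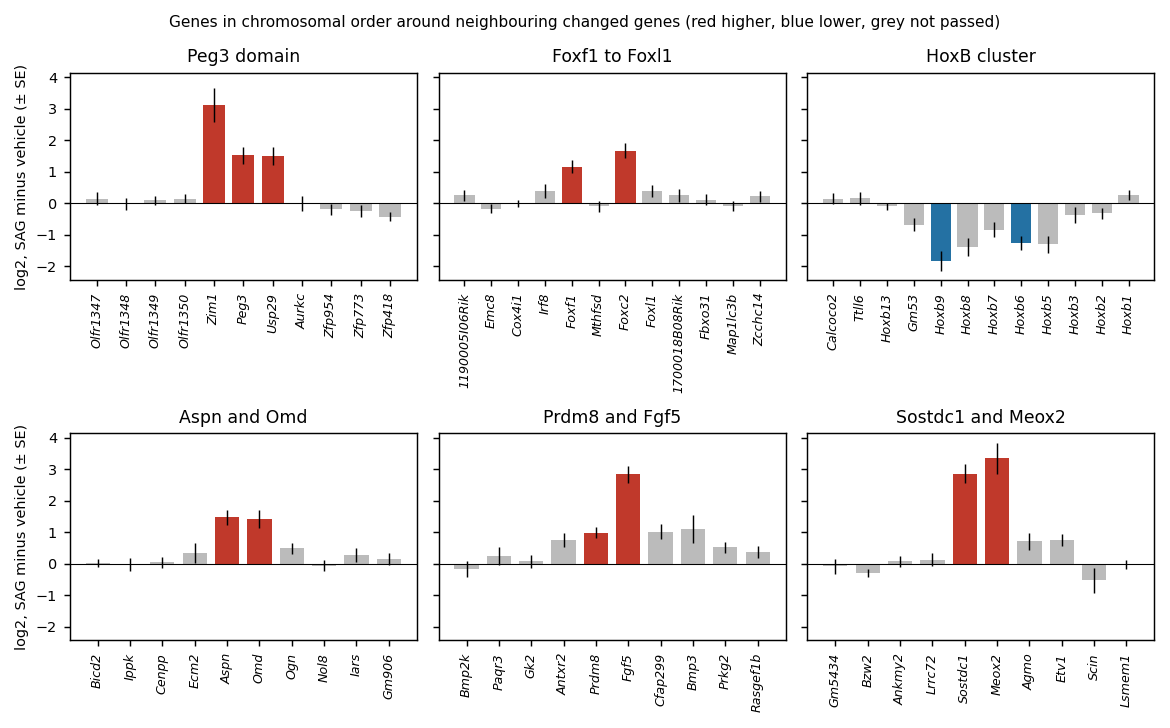
Bars show the log2 difference, SAG minus vehicle, with its SE, for measured genes in RefSeq chromosomal order around 6 groups of neighbouring called genes (red higher, blue lower, grey not passed). Red bars stand side by side, as for Zim1, Peg3 and Usp29, with grey bars around them, while the HoxB bars from Hoxb9 to Hoxb5 all lie below 0. Grey bars are not all near 0. Cfap299 beside Fgf5 lies at 1.02, Agmo and Etv1 beside Meox2 lie at 0.71 and 0.75, and Scin beyond them lies at -0.53.

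The gene with the largest fall was Sult1e1, which inactivates oestrogens by adding sulphate. It measured 10.35, 8.75 and 8.96 with vehicle and 5.26, 4.67, 4.30 and 3.97 with SAG. The groups did not overlap, and the fall (-4.80 ± 0.87, limma adjusted p = 0.0362) had a wide SE. With SAG its mean of 4.55 lay in the range of the dimmest 25% of probe sets, where a difference may be understated, so no fold is given. None of the other 11 measured sulphotransferases in the list passed, and 0 of 23 steroid enzymes did in limma (4 at an unadjusted p under 0.05), with Hsd17b11 nearest (-0.87 ± 0.18 (limma adjusted p = 0.0612)). Outside the list, the sulphotransferase gene Chst15 fell (-1.23 ± 0.17 (limma adjusted p = 0.0101)) and Hs6st2 rose (1.19 ± 0.22 (limma adjusted p = 0.043)). Neither call held with every single array left out. Crabp1, which binds retinoic acid in the cytoplasm, measured 9.78, 9.64 and 10.04 with vehicle and 7.12, 6.80, 7.25 and 7.04 with SAG. Its fall of 2.76 ± 0.15 was tight, with the smallest adjusted p of all genes (limma, 5.86e-05). The other 22 genes of the retinoic acid pathway did not pass, with Crabp2 at -0.23 ± 0.24, Aldh1a1 at -1.53 ± 0.52 and Cyp26b1 at 0.67 ± 0.24. Adh1, an alcohol dehydrogenase that can oxidise retinol, was among the brightest genes and fell by 1.58 ± 0.24 (limma adjusted p = 0.0174), from 16.36, 16.28 and 16.35 to 14.06, 14.81, 15.12 and 14.996. It was the 1 call of 5 alcohol dehydrogenases, a list drawn up after values had been seen, beside 0.282% of all genes falling. Crabp1 passed whichever single array was left out. Single arrays decided some calls, which ended without at least 1 of vehicle replicates 1, 2 and 3 and SAG replicates 1, 2, 3 and 4 for Sult1e1 (0.149) and Adh1 (0.0847), with the highest adjusted p in parentheses.

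Maob, which degrades amines in mitochondria, measured 11.76, 11.96 and 12.33 with vehicle and 9.28, 10.24, 9.98 and 9.61 with SAG, a fall of 2.24 ± 0.25 (limma adjusted p = 0.00374). Its sister enzyme Maoa was at -0.35 ± 0.15 and did not pass, and Maob was the 1 call of 12 monoamine genes. Entpd1, an ectoenzyme that breaks down extracellular ATP, fell by 2.18 ± 0.41 (limma adjusted p = 0.0412), 1 of 17 purine ectoenzymes and receptors. Ahr, the aryl hydrocarbon receptor, fell by 1.36 ± 0.23 (limma adjusted p = 0.0254). Among 34 receptors for peptides and prostanoids 2 fell and 0 rose (0.282% of all genes fell). Nmur2, a receptor for neuromedin U, measured 7.65, 7.71 and 8.26 with vehicle and 5.02, 5.33, 5.11 and 6.13 with SAG (-2.48 ± 0.35, limma adjusted p = 0.012). Agtr2, the type 2 angiotensin receptor, was very bright and fell by 1.02 ± 0.15 (limma adjusted p = 0.015), from 15.63, 15.65 and 15.75 to 14.75, 14.61, 14.79 and 14.45; Agtr1a was at -0.15 ± 0.24 and did not pass. The call for Maob held with any single array left out. Calls that ended without at least 1 of vehicle replicates 1, 2 and 3 and SAG replicates 1, 2, 3 and 4 were those of Entpd1 (0.22), Ahr (0.145), Nmur2 (0.0546) and Agtr2 (0.077), the highest adjusted p in parentheses.

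Further large falls came from unrelated families. Brinp3 measured 9.03, 10.04 and 10.04 with vehicle and 6.90, 7.81, 7.58 and 6.86 with SAG, without overlap, and fell by 2.41 ± 0.34 (limma adjusted p = 0.0113). Tll1, a tolloid-like protease that cuts procollagen and Chordin, fell by 1.98 ± 0.36 (limma adjusted p = 0.036). Spon2, a matrix protein, fell by 1.91 ± 0.37 (limma adjusted p = 0.0476), and Dab1, an adaptor in reelin signalling, by 1.94 ± 0.33 (limma adjusted p = 0.0276). Tagap, a GTPase-activating protein, fell by 1.97 ± 0.32 (limma adjusted p = 0.0228) from nearly equal vehicle arrays of 13.03, 13.08 and 13.14 to 11.29, 11.09, 10.71 and 11.36. Among single left-out arrays, calls ended without at least 1 of vehicle replicates 1, 2 and 3, SAG replicates 1, 2, 3 and 4 and cyclopamine replicates 1 and 3 for Brinp3 (0.0698), Tll1 (0.20), Spon2 (0.186), Dab1 (0.171) and Tagap (0.12), with the highest adjusted p in parentheses.

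Markers of duct epithelium were lower with SAG as a group. All 27 measured markers had a negative difference, the median was -1.30 and 20 of the 27 had no overlap with SAG lower, a pattern seen in 6.95% of all genes. Only 2 passed the test across all probe sets (0.282% of all genes fell): Cldn7, a tight-junction claudin, from 9.51, 9.82 and 9.40 to 7.45, 8.31, 8.05 and 8.28 (fall of 1.56 ± 0.29 (limma adjusted p = 0.038)), and Esrp1, an epithelial splicing factor, by 1.40 ± 0.26 (limma adjusted p = 0.0383). Pax8 (-1.06 ± 0.22 (limma adjusted p = 0.0612)), a factor of the nephric duct, and Cdh1 (-1.44 ± 0.31 (limma adjusted p = 0.0717)), the epithelial cadherin, were just outside. Kif12, a kinesin, went from 9.37, 10.27 and 9.50 to 7.45, 8.48, 7.42 and 7.33, a fall of 2.04 ± 0.38 (limma adjusted p = 0.0426) in which SAG replicate 2 came closest to vehicle. Mal2, a membrane protein of apical transport in epithelia, fell by 1.76 ± 0.29 (limma adjusted p = 0.0228), from 12.75, 13.61 and 13.20 to 10.996, 11.79, 10.98 and 11.93. In whole ducts, fewer epithelial cells and less RNA per epithelial cell cannot be told apart. With cyclopamine the mean of the 27 markers was 11.7 to 12.4, above every vehicle array. With only the 7 arrays in the fit, 7 of the 27 markers passed, and with cyclopamine replicate 2 left out also 7. Single arrays decided some calls, which ended without at least 1 of vehicle replicates 1, 2 and 3, SAG replicates 1, 2, 3 and 4 and cyclopamine replicate 1 for Cldn7 (0.207), Esrp1 (0.199), Kif12 (0.22) and Mal2 (0.132), with the highest adjusted p in parentheses.

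Of 9 measured HoxB genes 2 fell and 0 rose, beside 0.282% of all genes falling, with a median of -0.83. The HoxA, HoxC and HoxD clusters held 0 calls in limma (0, 0 and 1 genes at an unadjusted p under 0.05), and a difference between clusters was not tested. Hoxb9 measured 7.82, 9.18 and 8.31 with vehicle and 6.44, 7.08, 6.84 and 6.10 with SAG, a fall of 1.82 ± 0.32 (limma adjusted p = 0.0316). Hoxb6 fell by 1.25 ± 0.23 (limma adjusted p = 0.036), and between them Hoxb8 (-1.39 ± 0.29 (limma adjusted p = 0.0602)) and Hoxb7 (-0.83 ± 0.23 (limma adjusted p = 0.178)) were lower without overlap and did not pass, as was Hoxb5 (-1.29 ± 0.27 (limma adjusted p = 0.0644)). The groups overlapped for Hoxb3 (-0.37 ± 0.25), Hoxb2 (-0.32 ± 0.18), Hoxb1 (0.27 ± 0.17) and Hoxb13 (-0.09 ± 0.12), which did not pass, and Hoxb1 and Hoxb13 were dim in every group. Medians were -0.36 for 9 HoxA, 0.18 for 9 HoxC and 0.12 for 8 HoxD genes. Axin2, a feedback target of Wnt signalling, measured 11.76, 12.17 and 11.54 with vehicle and 10.40, 10.89, 10.73 and 9.96 with SAG. It fell by 1.33 ± 0.24 (limma adjusted p = 0.0346), the 1 call of 10 Wnt targets, whose median was -0.45; Sp5 (-0.65 ± 0.18) and Znrf3 (-0.63 ± 0.22) did not pass, and Lef1 (-0.00 ± 0.21) and Myc (0.09 ± 0.21) were close to 0. On single arrays the HoxB median, relative to the vehicle mean, was -0.10 to 0.16 with vehicle, -1.19 to -0.44 with SAG and 0.44 to 1.40 with cyclopamine. The duct epithelium median was -0.41 to 0.53 with vehicle, -1.57 to -0.78 with SAG and 0.41 to 1.46 with cyclopamine, where 1 cyclopamine array reached into the vehicle range. Its part in the HoxB and Axin2 values was not tested. Calls that ended without at least 1 of vehicle replicates 1, 2 and 3, SAG replicates 1, 2, 3 and 4 and cyclopamine replicate 1 were those of Hoxb9 (0.124), Hoxb6 (0.20) and Axin2 (0.191), the highest adjusted p in parentheses.

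**Figure D5:**
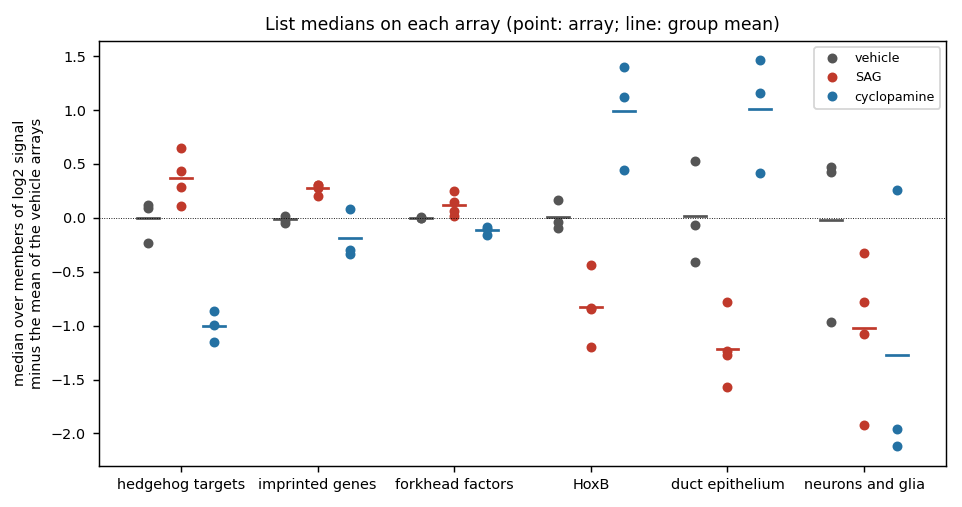
Each point is an array, placed by the median over a list's members of log2 signal minus the vehicle mean; a line marks each group's mean. SAG points lie above vehicle for imprinted genes and below it for HoxB and duct epithelium. Cyclopamine lies above vehicle for HoxB and overlaps it for duct epithelium, and the neuron and glia points spread over more than 1 unit within each group.

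Some receptor and ion channel subunits fell. Gria1, a subunit of AMPA glutamate receptors, measured 9.41, 9.48 and 8.78 with vehicle and 7.96, 8.09, 7.99 and 8.02 with SAG, a fall of 1.21 ± 0.20 (limma adjusted p = 0.0228). Gabrb1, a subunit of GABA-A receptors, fell by 1.23 ± 0.22 (limma adjusted p = 0.0351), so 2 of 29 ionotropic glutamate and GABA-A receptor genes fell, beside 0.282% of all genes, in a list drawn up after values had been seen. In that list 11 genes were lower with SAG without overlap, as were 6.95% of all genes, and 2 were higher without overlap. An unadjusted limma p under 0.05 was found for 13 of the 29, beside 10.9% of all genes. Among 47 calcium and TRP channels Trpc4 (-1.47 ± 0.25 (limma adjusted p = 0.0283)) and Cacna1d (-1.02 ± 0.19 (limma adjusted p = 0.0383)), an L-type calcium channel subunit, fell and 0 rose (0.282% of all genes fell). Of 90 potassium channels 1 rose, Kcns3 (1.32 ± 0.19 (limma adjusted p = 0.01275)), and 0 fell, beside 0.477% of all genes rising. The call for Kcns3 did not hold with every single array left out. Neuron and glia markers had a median of -1.07 and 0 of 14 passed in limma (3 at an unadjusted p under 0.05), with Stmn2 at -2.45 ± 0.87 (limma adjusted p = 0.316) and Syt1 at -1.88 ± 0.52 (limma adjusted p = 0.175). That median was -0.64 without vehicle replicate 1, -0.68 without SAG replicate 4 and -1.48 without vehicle replicate 3. Their mean signal was 7.74 to 9.14 with vehicle, 6.80 to 8.24 with SAG and 6.85 to 9.02 with cyclopamine, and 2 of the 14 were below the lower quartile of all probe sets. The groups overlapped, and the part of nerve tissue in the falls of these receptors and channels was not tested. Among single left-out arrays, calls ended without at least 1 of vehicle replicates 1, 2 and 3, SAG replicates 1, 2, 3 and 4 and cyclopamine replicate 3 for Gria1 (0.141), Gabrb1 (0.199), Trpc4 (0.0888) and Cacna1d (0.209), with the highest adjusted p in parentheses.

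Several lists held 0 calls in limma. An unadjusted p under 0.05, which 10.9% of all genes had, was found for 8 of 20 smooth muscle genes, 5 of 19 mesenchyme and fibroblast markers, 5 of 19 hypoxia and glycolysis genes, 3 of 21 stress genes and 3 of 20 Notch genes. The count was 3 of 26 for the cell cycle, 1 of 17 for endothelium, 1 of 24 for the primary cilium, 1 of 17 for cholesterol synthesis, 0 of 16 for macrophages and 0 of 72 for ribosomal proteins. Smooth muscle genes (20) had a median of -0.33, with Acta2 at -0.04 ± 0.13 and Synpo2 nearest the threshold (-1.27 ± 0.25 (limma adjusted p = 0.0506)). On single arrays, relative to the vehicle mean, the smooth muscle median was -0.19 to 0.09 with vehicle and -0.37 to -0.20 with SAG. These array medians did not overlap, and 15 of the 20 genes had a negative difference. Mesenchyme and fibroblast markers (19) had a median of 0.20, endothelium (17) 0.00 and macrophages (16) 0.22. Cell cycle genes (26) had a median of -0.07 and ranged from -0.41 to 0.18. Genes of the primary cilium (24), through which the signal passes, had a median of 0.04, those of cholesterol synthesis (17) 0.08 and those of the Notch pathway (20) -0.12. All 19 hypoxia and glycolysis genes had a positive difference, with a median of 0.37. Adm, which encodes adrenomedullin, was at 1.57 ± 0.40 (limma adjusted p = 0.132). On single arrays, relative to the vehicle mean, that list's median was 0.25, 0.19 and -0.39 with vehicle. With SAG it was 0.15, 0.14, 0.59 and 0.72, so the groups overlapped. ER and amino acid stress genes (21) had a median of 0.41, with Atf5 at 1.40 ± 0.44 (limma adjusted p = 0.237). Their array medians also overlapped, at -0.22 to 0.36 with vehicle and 0.29 to 0.52 with SAG. The 72 ribosomal protein genes stayed within -0.25 to 0.22.

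The direct contrast of SAG with cyclopamine, which shares the SAG arrays with the comparison above, passed for 12.1% of genes. For Hhip, cyclopamine arrays were at 6.21, 6.12 and 5.66, below all vehicle arrays, and SAG exceeded cyclopamine by 10.50 ± 0.33 (limma adjusted p = 9.73e-08). Artn was likewise lower with cyclopamine (4.64, 4.32 and 4.62), in the range of the dimmest 25% of probe sets, so the size of its difference from SAG is not given (limma adjusted p = 2.81e-06). C1qtnf3 was at 6.32, 6.17 and 6.25 with cyclopamine, and its difference from vehicle did not pass (-0.28 ± 0.40, limma adjusted p = 0.771). Peg3 (-0.16 ± 0.30) and Plagl1 (-0.10 ± 0.20) with cyclopamine did not pass either. Some falls appeared beside cyclopamine values that were low as well. Nmur2 was at 5.01, 5.19 and 6.37 with cyclopamine, a difference between SAG and cyclopamine of -0.12 ± 0.35 that did not pass (limma adjusted p = 0.887). Lmcd1, a LIM-domain cofactor, had means of 9.67 with vehicle, 8.11 with SAG and 8.18 with cyclopamine, and Galnt16, an enzyme of O-glycosylation, of 10.75, 9.28 and 9.15. For Trpc4 these means were 7.73, 6.26 and 6.23, and SAG and cyclopamine differed by 0.03 ± 0.25 (limma adjusted p = 0.96). Crabp1 was the opposite case, with cyclopamine arrays at 10.49, 10.65 and 10.84, above vehicle, and a SAG minus cyclopamine difference of -3.61 ± 0.15 (limma adjusted p = 4.53e-07). Lmcd1 and Galnt16 were chosen after their values were seen. Single arrays decided some calls, which ended without at least 1 of vehicle replicates 2 and 3 and SAG replicates 3 and 4 for Lmcd1 (0.101) and Galnt16 (0.0509), with the highest adjusted p in parentheses.

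Promoter windows were searched on both strands for the 9 letters GACCACCCA (reverse complement TGGGTGGTC), the core of the GLI binding motif. A window from RefSeq was at hand for 75 of the 93 higher genes and 38 of the 55 lower genes. The letters were in 0 of the 75, in 1 of the 38 and in 33 of 15691 windows of measured genes (0.21%). Gli1, Foxf1 and Foxc2 were not among the genes with a window. The shorter core GACCACCC was in 1 higher gene, Prkd1, 1 lower gene, Nmur2, and 0.905% of measured windows. The windows shown are those of Hhip, the gene with the largest rise, which lacks these letters, and of Nmur2, which holds them in capitals as the reverse complement (GRCm38.p6, chr8:80057959-80058258, minus strand, and chr11:56040938-56041237, minus strand).
Hhip: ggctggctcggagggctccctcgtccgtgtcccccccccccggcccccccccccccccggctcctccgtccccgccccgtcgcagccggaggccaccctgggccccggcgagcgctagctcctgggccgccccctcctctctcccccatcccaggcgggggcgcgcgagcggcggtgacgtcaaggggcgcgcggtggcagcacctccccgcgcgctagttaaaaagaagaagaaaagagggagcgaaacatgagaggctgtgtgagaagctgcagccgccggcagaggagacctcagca
Nmur2: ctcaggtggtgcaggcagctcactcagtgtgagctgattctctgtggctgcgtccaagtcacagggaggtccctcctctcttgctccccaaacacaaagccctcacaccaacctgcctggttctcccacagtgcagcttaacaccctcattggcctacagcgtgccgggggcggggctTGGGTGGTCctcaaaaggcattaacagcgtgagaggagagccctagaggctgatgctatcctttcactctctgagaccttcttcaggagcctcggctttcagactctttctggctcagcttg
The match in Nmur2, a gene that fell, starts at base 179 of 300. A window without the letters says only that they are not in those 300 bases. Higher genes had a median GC content of 61.6% and 17 CpG dinucleotides per window, lower genes 59.2% and 12, and all measured genes 57% and 14.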

How the data were processed

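The 10 Affymetrix arrays hold RNA of cultured ducts, 3 with vehicle, 4 with SAG and 3 with cyclopamine. Per the labels' protocols, 100 ng of total RNA with an integrity number of at least 7 was labelled by the WT Plus procedure. The authors deposited a table of normalized values, read here as log2 signals from their range (2.95 to 18.7). How they were summarized and normalized, and the software and genome build, were not given in the sources used here. A platform annotation table named 19572 of 22206 probe sets with 1 gene each, all matched to RefSeq (GRCm38.p6), and a gene with several probe sets was represented by the brightest.

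A mean per group was fitted to all 10 arrays with limma 3.58.1 in R 4.3.3 (7 residual and 3.70 prior degrees of freedom), with no filter, a two-sided test and Benjamini-Hochberg adjustment over all 22206 probe sets at 0.05. P-values measure the spread between these samples. Genes were named by rule: core pathway genes, the 15 largest rises and 15 largest falls without overlap of the groups, and up to 4 members of each list by smallest p with every passing member of lists with 6 or fewer. Genes outside that rule, such as Trabd2b, Ahr, those named for chromosomal position and most of those given as not passing, were chosen after their values were seen. The comparison, the lists and the tests were chosen with earlier results of these data known. On simulated data with 200 changed probe sets, 11.6% of changes of 0.5 log2 units, 66% of 1, 94% of 2 and 98% of 4 were recovered, with 5.07% false calls. The simulated noise was drawn independently for each probe set and array, without variation shared between genes. The rates may therefore differ in the real arrays. Alternatives were further quantile normalization, median centring, leaving out the dimmest 25%, fitting only the 7 arrays, an intensity-dependent prior, array weights, the replicate block, other thresholds, averaging the probe sets of a gene and each array left out. Same-numbered arrays of different groups had correlations of deviations from -0.19 to 0.24 over 9 pairs, and others from -0.22 to 0.23 over 24 pairs. The highest was that of vehicle replicate 2 with SAG replicate 2. The main fit treated the samples as unpaired, and whether the numbers pair them was not tested.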

Additional observations from a re-analysis of the deposited data

Results flagged for a closer look

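For 40 genes named above, the 4 SAG arrays were checked for 1 array set apart from the rest of its group, by the gap to its nearest neighbour as a share of the range (Dixon's test); chance alone gives this in about 1 of 20 groups, and 3 genes showed it. For Foxf1, SAG replicate 3 was the lowest at 7.1056, with the nearest array at 7.2889, a gap of little size on the log2 scale. For Meox2, SAG replicate 1 was the lowest at 7.4963, with the nearest at 9.3538 and the highest at 9.6042. For Kif12, SAG replicate 2 was the highest at 8.4836, with the nearest at 7.4468 and the lowest at 7.3348. SAG replicate 1 is also the array with the highest mean of gonad and adrenal markers (7.69), and the part of other tissue in its Meox2 value was not tested.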

How the results depend on the processing

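Of the 162 called probe sets, 0 changed sign under any of 17 alternatives and 21 passed all of them. The count of changed probe sets was 162; it was 296 (51.0% higher) with only the SAG and vehicle arrays, 313 (53.0%) with array weights, 36 (86.1%) at a threshold of 0.01 and 316 (51.9%) at 0.1, and the share higher was 72.4% with centred arrays, which moved the median of all probe sets to 0.10. With the replicate block 32 passed, 20 higher and 12 lower, 30 of them among the 162. It left 1 hedgehog target, 1 imprinted gene and 0 forkhead, HoxB and duct epithelium genes past the test. Only the SAG group has a replicate 4, so this fit also lost that array. Its list medians equalled those without SAG replicate 4, where 78 probe sets passed. With single arrays left out, the count ran from 45 (without vehicle replicate 2) to 339 (without cyclopamine replicate 2), the share higher from 48.1% to 86.7%, hedgehog targets from 2 to 4, imprinted genes from 1 to 4, forkhead factors from 1 to 4, HoxB from 0 to 4 and duct epithelium from 0 to 7, with its median from -1.55 to -0.93. Calls of HoxB and duct epithelium genes were 4 and 7 with only the SAG and vehicle arrays and 4 and 6 with array weights, and duct epithelium had 4 with the intensity-dependent prior. The imprinted median was 0.37 with centred arrays and the HoxB median -1.25 without the dimmest 25%. The 8-letter motif core was in 1 higher gene, against 0 for 9 letters. Values near 0 changed sign: Gli3 (-0.19) was 0.0151 with the replicate block and -0.355 to 0.0151 with single arrays left out (highest without SAG replicate 4), Ihh (-0.05) was 0.0426 with centred arrays and -0.0948 to 0.0124 with single arrays left out (highest without SAG replicate 2), and Dhh (-0.14) was -0.291 to 0.0131 (highest without vehicle replicate 3). Where these values moved, the cause was not tested, beyond fewer arrays or probe sets. Dim signals limit what the dimmest 25% can show, with 1 rise and 1 fall.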

Other observations

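Of the 162 called probe sets, 14 have no gene name here, 7 higher and 7 lower with SAG, out of 2634 unnamed probe sets tested. The larger rises among them were those of TC0100001206.mm.2 (8.76 with vehicle, 12.3 with SAG and 6.37 with cyclopamine on average, 3.55 ± 0.43, limma adjusted p = 0.00544) and TC0200002308.mm.2 (4.96 with vehicle, 7.98 with SAG and 4.61 with cyclopamine on average, 3.02 ± 0.33, limma adjusted p = 0.00374). The larger falls were those of TC1500002327.mm.2 (8.14 with vehicle, 6 with SAG and 7.96 with cyclopamine on average, -2.13 ± 0.28, limma adjusted p = 0.00838) and TC1100001271.mm.2 (10.4 with vehicle, 8.7 with SAG and 10.9 with cyclopamine on average, -1.69 ± 0.24, limma adjusted p = 0.0125). The 1412 olfactory and vomeronasal receptor genes, most of them dim, had a median difference of 0.08, with 946 above and 464 below 0 and 0 calls in limma, and the dimmest 25% of all probe sets had a median of 0.07.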
